A study of Mus musculus with 10 samples.

Results

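The genes described here carry glucose into the cell and break it down: glucose and lactate transporters, the enzymes of glycolysis below hexokinase, the enzymes that set fructose 2,6-bisphosphate, the branch point at pyruvate, and the pentose phosphate pathway. They were taken by symbol from a list of 33 genes, with hexokinases left out, and every probe set annotated to exactly 1 of those symbols was used. Of the 33 genes, 29 had such a probe set, out of 18194 genes with one in the whole series. They had 72 probe sets of 45265 in all, of which 6 were control probe sets for Gapdh. The expression of Eno1, Gpi1, G6pdx and Pfkfb1 was not analysed here.

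RNA came from mouse embryos at embryonic day 5.5 and was measured on 10 arrays. In the Ad samples, for anterior distal, the dissected piece carried the glowing anterior visceral endoderm together with its underlying epiblast. In the Pp samples, for posterior proximal, it came from the other side, just under the extraembryonic border, and carried proximal visceral endoderm and epiblast. The whole embryo was not dissected. All 3 kinds of sample shared the genetic background B6SJLF1×CerlP-GFP, in which green fluorescent protein marks the anterior visceral endoderm, and the embryos were not treated. MOE430A and MOE430B, the 2 array types, were each hybridised with 2 Ad, 2 Pp and 1 whole-embryo sample. The fragments are mixtures of tissues, so fewer cells of a type and less RNA per cell cannot be told apart. The labels do not say that replicates came from separate embryos, so the spread behind each p-value may be technical.

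Glycolysis splits glucose into pyruvate and yields ATP without oxygen, and lactate dehydrogenase and the monocarboxylate transporters let the cell export the product as lactate. Pyruvate dehydrogenase instead sends pyruvate to the mitochondria, and its kinases, Pdk1 among them, switch that route off. The pentose phosphate pathway draws glucose 6-phosphate off for NADPH and ribose. After implantation the mouse epiblast is known for a strongly glycolytic metabolism, while the visceral endoderm around it takes up nutrients.

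Values are signal in arbitrary units, deposited by the authors after MAS5, and a log2 difference is the fitted difference of log2(signal + a pseudocount) after each array was centred on its median. The pseudocount was 247 on MOE430A and 10.5 on MOE430B. Probe sets were tested only if their mean lay above the 40th percentile, or a signal of about 464 (MOE430A) or 37.2 (MOE430B). A call is an adjusted p under 0.05 in limma. Of the 57 non-control probe sets on MOE430A, 50 were tested, for 25 of 27 genes, and on MOE430B 8 of 9, for 8 of 8 genes. The probe sets with an x or s suffix, which can also bind related sequences such as pseudogene transcripts, made up 16 of those 50 and 1 of those 8. Where 1 probe set stands for a gene, it is the brightest tested one.

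The Ad fragments matched their label on anterior visceral endoderm markers, and no list of posterior markers was examined for Pp. The summed signal of 8 anterior visceral endoderm markers on MOE430A was 23756 and 19336 in Ad, 7566 and 6911 in Pp, and 8964 in the whole embryo. Pp replicate 2 stood apart: 9 extraembryonic ectoderm markers summed to 9766 and 9948 in Ad and to 9607 in the first Pp replicate, but to 16046 in the second, against 18730 for the whole embryo. The 12 markers of decidua and maternal stroma summed to 7502 to 9957 in the 4 fragments and to 43546 in the whole embryo. The highest of the 4 was Ad replicate 2. There Prl3c1 had 812, against 94.5 in Ad replicate 1 and 96.9 and 86.9 in Pp. Prl8a2 had 564 there, against 254 in Ad replicate 1 and 241 and 267 in Pp. S100a6 was also highest there among the fragments, at 493 against 220 in Ad replicate 1 and 275 and 458 in Pp. So was Vim, at 1340 against 1058 in Ad replicate 1 and 1101 and 867 in Pp. Pgr and Hand2 were highest there too, by less. Igfbp4, Bmp2, Des, Dcn, Hoxa10 and Hoxa11 were not. Of 5 maternal blood markers on MOE430A, 4 lay below the tested range, Ptprc and Hba-a1 among them, and no marker of any list was at 0. The MOE430B arrays carry other replicate numbers, but 100 probe sets shared by both types linked the arrays. After subtraction of each probe set's mean, Pearson's r was 0.848 between Ad replicates 1 and 3, 0.806 between Ad replicates 2 and 4, 0.412 between Pp replicates 1 and 3, 0.576 between Pp replicates 2 and 4, and 0.918 between the whole embryos. Each MOE430A array had its highest r with the partner named here. The Pp links were weak, though. Ad replicates 2 and 3, which are not among these 5 pairs, reached 0.585, above both. Ad replicates 1 and 4 reached 0.507, above the link of Pp replicates 1 and 3. Whether both array types received the same RNA is not stated, so MOE430B is not treated as independent repetition of MOE430A.

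Between Ad and Pp, no tested gene of sugar breakdown passed. On MOE430A the brightest probe sets of Aldoa, Tpi1, Pgam1 and Ldha had log2 differences from -0.09 to -0.06. Those of Pfkl, Pfkp and Aldoc ran from -0.41 to -0.35. In limma 0 of the 50 probe sets on MOE430A were called, where 0.169% of all 13575 tested were (0.162% higher in Ad, 0.00737% lower), and 0 of the 8 on MOE430B, where 0.111% of 13506 were (0.104% higher, 0.0074% lower). An unadjusted p under 0.05 was found for 11 of the 50 (4 higher and 7 lower in Ad), or 22.0%, against 11.7% of all tested (5.8% higher and 5.93% lower). On MOE430B it was 2 of 8, with 1 in each direction, against 10.4% (5.09% higher and 5.28% lower). These counts include Slc2a2 on MOE430A and Slc16a1 on MOE430B, each tested only through the samples where it was high. The 95% interval of the difference lay within 2-fold for 24 of 25 genes on MOE430A, all but Slc2a2, and for 8 of 8 on MOE430B; over all tested probe sets it did so for 99.1% and 94.7%. It lay within 1.5-fold for 21 of the 25 genes, against 95.1% of all tested probe sets, the other 4 being Slc2a2, Slc16a3, Pfkp and Aldoc. Over all tested probe sets on MOE430A the median log2 difference was -0.03 and 41.1% were positive. The 25 genes had a median of -0.07, with 20 negative and 5 positive. That split depended on the centring, since 15 were negative and 10 positive without it. The median of all tested probe sets was then 0.04, and 65.8% were positive.

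**Figure D1:**
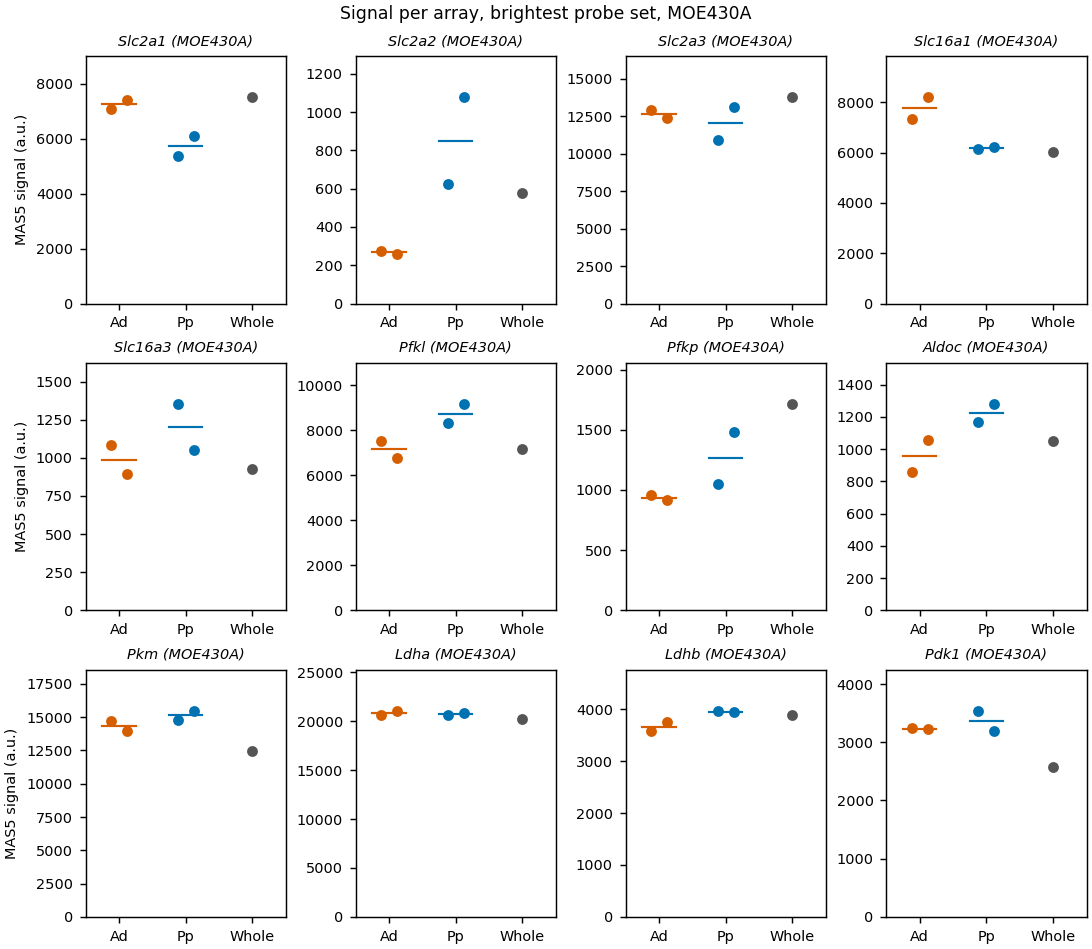
MAS5 signal in arbitrary units on each MOE430A array for the brightest probe set of 12 genes; points are arrays, horizontal lines are means of 2 arrays, and the whole embryo is 1 array. Slc2a2 lies at 273 and 260.2 in Ad against 625 and 1077 in Pp, while Ldha stays between 20210 and 21053 throughout.

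Of the brightest probe sets on MOE430A, that of a transporter differed most. Slc2a2, the low-affinity glucose transporter known from liver, gut and pancreatic beta cells, had 273 and 260.2 in Ad, against 625 and 1077 in Pp, with 579.6 in the whole embryo. Both Ad arrays lay below both Pp arrays and below the signal needed for testing, so the gene was tested only because of its signal in Pp and the whole embryo. The log2 difference was -1.13 ± 0.19 (SE, 95% interval -1.60 to -0.66, n = 2 against 2 arrays, limma unadjusted p = 0.0011, adjusted p = 0.151). Because of how the gene came to be tested, its p supports nothing here. The difference was -0.89 with a larger pseudocount and -1.71 with none, so no fold is given. The higher Pp array is replicate 2, which also held the extraembryonic ectoderm signal; the part of that tissue in the difference was not tested. Pp replicate 1 alone stayed at more than the Ad signals, but without replicate 2 the probe set no longer reached the tested range and has no p. Without Pp replicate 1 the difference was -1.44; its p is not given, since it rests on the Pp array with the extraembryonic signal and on the spread of an Ad pair below the tested range.

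Slc2a1, the general glucose transporter of growing cells, leaned the other way on 2 of its 3 probe sets. The brightest had 7087 and 7418 in Ad, against 5378 and 6116 in Pp, and 7511 in the whole embryo, so the fragments did not overlap and Ad lay near the whole embryo. Its log2 difference was 0.26 ± 0.09 (95% interval 0.04 to 0.47, limma adjusted p = 0.382). A second probe set had 5401 and 5626 in Ad against 3844 and 4467 in Pp (log2 difference 0.32, adjusted p = 0.341). The third overlapped, with 4961 and 5095 in Ad and 4408 and 5202 in Pp (log2 difference -0.00). Slc2a3, the high-affinity glucose transporter, had 12885 and 12374 in Ad, against 10926 and 13132 in Pp, so the groups overlapped; its log2 difference of 0.01 had an interval of -0.25 to 0.26.

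The monocarboxylate transporters pointed in opposite directions. Slc16a1, which moves lactate and pyruvate across the cell membrane, had 7317 and 8198 in Ad, against 6128 and 6212 in Pp. The whole embryo, at 6013, lay beside Pp. The log2 difference was 0.25 ± 0.08 (95% interval 0.05 to 0.45, limma adjusted p = 0.369). A separate probe set on MOE430B had 45.6 and 55.7 in Ad, against 36.8 and 28.0 in Pp, without overlap (log2 difference 0.44 ± 0.18, adjusted p = 0.475). Its Pp mean and its whole-embryo signal lay below the tested range. It was thus tested only through Ad, and its p supports nothing here. Slc16a3, the transporter known for lactate export from strongly glycolytic cells, had 1083 and 894 in Ad, against 1354 and 1054 in Pp, with overlap (log2 difference -0.30 ± 0.12, adjusted p = 0.425). Both Slc16a3 and Slc2a1 depended on which Pp array was kept, with the spread then taken from the Ad pair alone. Slc16a3 was -0.44 (adjusted p = 0.0275) without Pp replicate 2 and -0.15 (adjusted p = 0.447) without Pp replicate 1, and -0.19 (adjusted p = 0.931) without Ad replicate 2. Slc2a1 was 0.35 (adjusted p = 0.0454) without Pp replicate 2 and 0.16 (adjusted p = 0.368) without Pp replicate 1. Slc16a1 was 0.16 (adjusted p = 0.928) without Ad replicate 2 and, on MOE430B, 0.26 (adjusted p = 0.466) without Pp replicate 4.

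In upper glycolysis, all 6 genes tested on MOE430A had negative differences and none passed, also without centring for every one except Aldoa, which became 0.01. Phosphofructokinase, the committing step, is made of 3 kinds of subunit. The liver type Pfkl had 7550 and 6770 in Ad, against 8314 and 9173 in Pp, and 7163 in the whole embryo, so Ad and Pp did not overlap (log2 difference -0.35 ± 0.09, 95% interval -0.56 to -0.13, limma adjusted p = 0.298). Its second probe set showed the same order, with 3656 and 3144 in Ad against 4345 and 5219 in Pp (log2 difference -0.53 ± 0.11, adjusted p = 0.230). The brightest passed without Pp replicate 1 (-0.42, adjusted p = 0.0159), with the spread from the Ad pair alone, and not without any other array (adjusted p = 0.143 to 0.928). The Pfkl probe set on MOE430B did not, with 522 and 527 in Ad against 459 and 493 in Pp (log2 difference 0.06 ± 0.13).

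The platelet type Pfkp had 954 and 918 in Ad, against 1053 and 1482 in Pp, and 1714 in the whole embryo. Its log2 difference was -0.41 ± 0.14 (limma adjusted p = 0.381). The array with the most was again Pp replicate 2, and without it the difference was -0.20 (adjusted p = 0.267), so the value rests largely on that array; the part of the extraembryonic ectoderm was not tested. Without Pp replicate 1 it was -0.62 (adjusted p = 0.000700). The other Pfkp probe set on MOE430A ran the other way (610 and 640 in Ad, 531 and 505 in Pp, log2 difference 0.12), and the one on MOE430B had a log2 difference of -0.13. The muscle type Pfkm overlapped, at 1144 and 1344 in Ad and 1261 and 1239 in Pp (log2 difference -0.08 ± 0.09).

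Aldolase cleaves fructose 1,6-bisphosphate, and its 2 measured forms behaved unlike each other in size. Aldoc, the form known from brain, had 857 and 1058 in Ad, against 1169 and 1280 in Pp, without overlap (log2 difference -0.36 ± 0.11, 95% interval -0.62 to -0.10, limma adjusted p = 0.341). It too passed without Pp replicate 1 (-0.42, adjusted p = 0.0333), and was -0.23 (adjusted p = 0.873) without Ad replicate 1. Aldoa, the form of most embryonic cells, had 19370 and 18955 in Ad, against 18762 and 19316 in Pp (log2 difference -0.06 ± 0.07). Its other 3 probe sets on MOE430A lay between -0.09 and -0.05 and the one on MOE430B at -0.03. Tpi1, which interconverts the 2 triose phosphates, was as level: 14577 and 13985 in Ad, against 14078 and 14903 in Pp (log2 difference -0.09 ± 0.07).

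**Figure D2:**
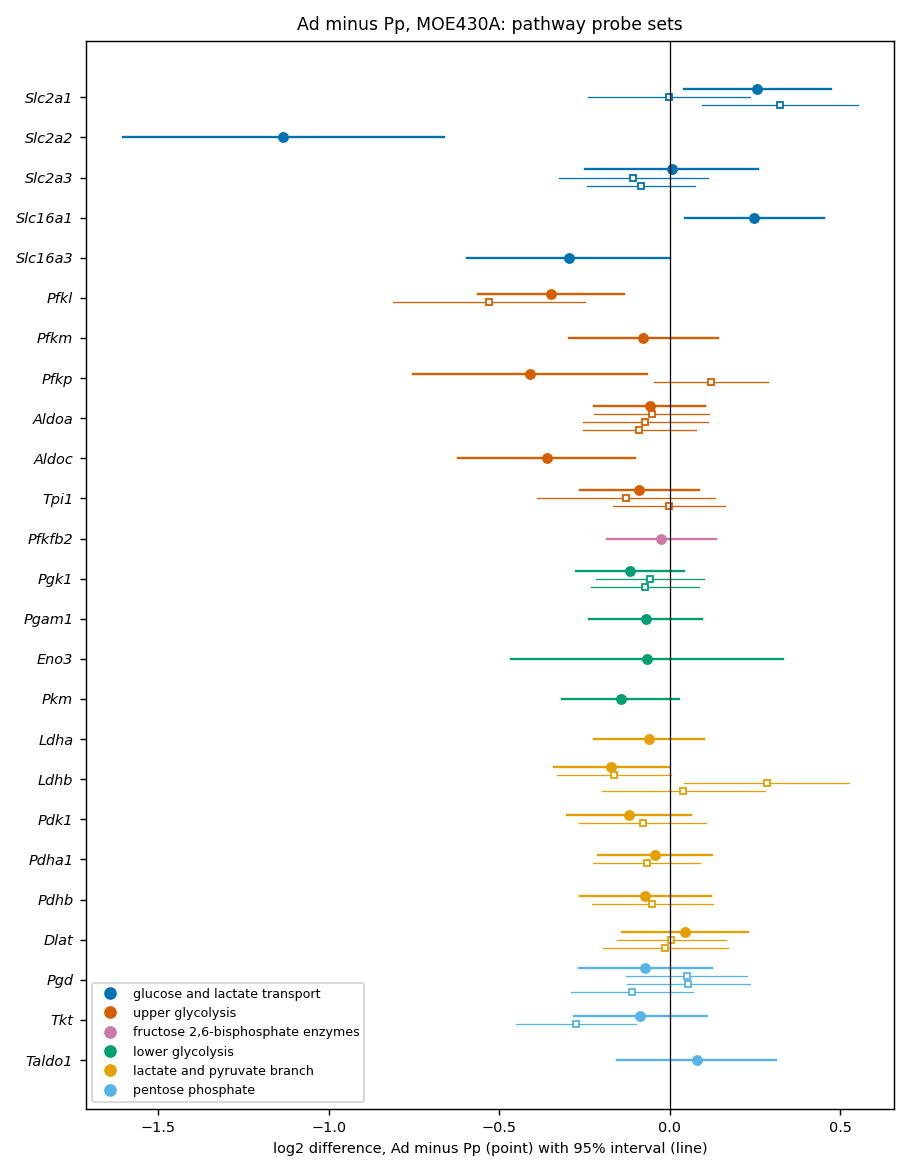
Fitted log2 difference, Ad minus Pp, with its 95% interval for the 50 tested probe sets on MOE430A, grouped by gene and coloured by step; filled circles are the brightest probe set of each gene, open squares the others. Most points lie near 0, Slc2a2 stands at -1.13, and none passed the test.

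The steps of lower glycolysis lay close to level. Its 4 genes tested on MOE430A had log2 differences from -0.14 to -0.07. Pgk1, the first enzyme of the route to make ATP, had 19575 and 19024 in Ad, against 20087 and 19863 in Pp (log2 difference -0.12 ± 0.06, limma adjusted p = 0.523), and its other 2 probe sets lay at -0.06 and -0.07. Pgam1, the phosphoglycerate mutase, had 12773 and 12615 in Ad, against 12458 and 12974 in Pp, a difference of -0.07 ± 0.07. Pkm, the pyruvate kinase that ends the route, had 14692 and 13992 in Ad, against 14764 and 15474 in Pp, a difference of -0.14 ± 0.07 with an interval of -0.31 to 0.03. Eno3, an enolase known from muscle, had 581 and 818 in Ad and 812 and 584 in Pp, so each pair spread as widely as both pairs together (-0.07 ± 0.16). The neuronal enolase Eno2 was not tested, at 344 and 476 in Ad and 475 and 312 in Pp.

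Gapdh was represented by its 3 control probe sets on each array type, which were not tested. On MOE430A the one nearest the 3′ end had 19399 and 19757 in Ad, against 20153 and 20019 in Pp, and 19582 in the whole embryo. The one nearest the 5′ end had 13083 and 14075 in Ad, against 12870 and 13701 in Pp, and 12260.1 in the whole embryo. The 3′ to 5′ ratio ran from 1.40 to 1.57 across fragments, against 1.60 for the whole embryo, on MOE430A, and from 1.19 to 1.34, against 1.49, on MOE430B. The highest signal on any MOE430A array was 34399, so Gapdh, Ldha, Pgk1 and Aldoa were among the bright probe sets; whether differences are compressed at such signals was not tested.

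At pyruvate, 5 of 6 genes on MOE430A were slightly negative. Ldha, the lactate dehydrogenase subunit typical of glycolytic cells, had 20595 and 21053 in Ad, against 20607 and 20827 in Pp (log2 difference -0.06 ± 0.07). Ldhb, the other subunit, gave probe sets that disagreed. The brightest had 3570.0 and 3755 in Ad, against 3968 and 3937 in Pp (log2 difference -0.17, limma adjusted p = 0.418), whereas another had 2686 and 2985 in Ad, against 2350 and 1993 in Pp (log2 difference 0.28, adjusted p = 0.383). The pyruvate dehydrogenase genes Pdha1 and Pdhb and the acetyltransferase gene Dlat of the same complex had differences of -0.04, -0.07 and 0.04. Pdk1, the kinase that inhibits the complex, had 3238 and 3231 in Ad and 3541 and 3191 in Pp (log2 difference -0.12 ± 0.07), and 252 and 254 in Ad against 221 and 237 in Pp on MOE430B (0.06 ± 0.13). On MOE430A, 6 of the 14 genes with several tested probe sets had differences of both signs.

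The pentose phosphate genes also differed little. Pgd, the second dehydrogenase of the oxidative arm, had 9645 and 8504 in Ad, against 9098 and 9057 in Pp (log2 difference -0.07 ± 0.08), and its other 3 probe sets ran from -0.11 to 0.05. Taldo1, the transaldolase, had 4093 and 4417 in Ad, against 3555 and 4096 in Pp (0.08 ± 0.09). For Tkt, the transketolase of the non-oxidative arm, the brightest probe set overlapped (8646 and 9519 in Ad, 9401 and 8983 in Pp, -0.09 ± 0.08). A second did not, with 3413 and 3635 in Ad against 4078 and 4129 in Pp (log2 difference -0.28 ± 0.07, limma adjusted p = 0.311), nor did the one on MOE430B, with 121 and 112 in Ad against 135 and 151 in Pp (-0.35 ± 0.14, adjusted p = 0.472).

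The bifunctional enzymes that make and remove fructose 2,6-bisphosphate, the strongest activator of phosphofructokinase, were faint. Pfkfb2 had 492 and 473 in Ad, against 455 and 467 in Pp, on MOE430A (log2 difference -0.03 ± 0.07), and 97.6 and 84.1 in Ad against 74.5 and 96.8 in Pp on MOE430B (0.01 ± 0.16). Pfkfb4, present on MOE430B alone, had 167 and 182 in Ad, against 169 and 166 in Pp (-0.02 ± 0.14). Pfkfb3 was not tested, at 246 and 239 in Ad and 267 and 287 in Pp for one probe set and 252 and 253 in Ad and 271 and 245 in Pp for the other.

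On the deposited scale, 11 of the 50 tested probe sets on MOE430A had both Ad arrays above both Pp arrays and 11 had both below, where 32.3% and 12.2% of all tested probe sets did. On MOE430B it was 3 and 1 of 8, where the shares were 28.8% and 14.6%.

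Against the whole embryo, 1 tested gene passed as higher in the fragments and 1 as lower. Gapdh, Eno2 and Pfkfb3 had no tested probe set. The kinase gene Pdk1 was 1.33-fold higher in the fragments, and Pfkfb4, a fructose 2,6-bisphosphate enzyme, was 2.06-fold lower. Each was 1 call, of 50 probe sets on MOE430A and of 8 on MOE430B, where 9.78% of all tested on MOE430A (4.6% higher and 5.19% lower) and 2.21% on MOE430B (0.407% higher and 1.81% lower) were called. An unadjusted p under 0.05 was found for 7 of the 50 (6 higher and 1 lower), against 27.3% of all tested (16.2% and 11.1%), and for 4 of the 8 (2 in each direction), against 16.4% (9.04% higher and 7.37% lower). The comparison averages both fragments and subtracts the whole embryo, and gives that lone array the spread found among fragments. The 25 genes on MOE430A had a median log2 difference of 0.07, with 16 positive. Over all tested probe sets the median was 0.05 and 60.8% were positive. Without centring 12 of the 25 genes were positive, where the median of all tested was -0.03 and 42.2% were positive. The decidual markers above were lower in the fragments as a list, 7 of 10 tested passing, and the Gapdh 3′ to 5′ ratio was lower too. Markers of the dissected tissues differed by list on MOE430A. Of 6 tested epiblast markers, 6 were higher in the fragments and 3 passed (median log2 difference 0.40). Of 8 anterior visceral endoderm markers, 7 were higher and 5 passed (median 0.61). Of 10 general visceral endoderm markers, only 6 were higher and 3 passed (median 0.27), while Sox17 of that list had -0.62. Extraembryonic ectoderm markers went the other way: of 9 tested, 1 was higher and 2, Hand1 and Ets2, passed as lower (median -0.20). The part of these tissues and of RNA quality in the 2 calls was not tested.

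**Figure D3:**
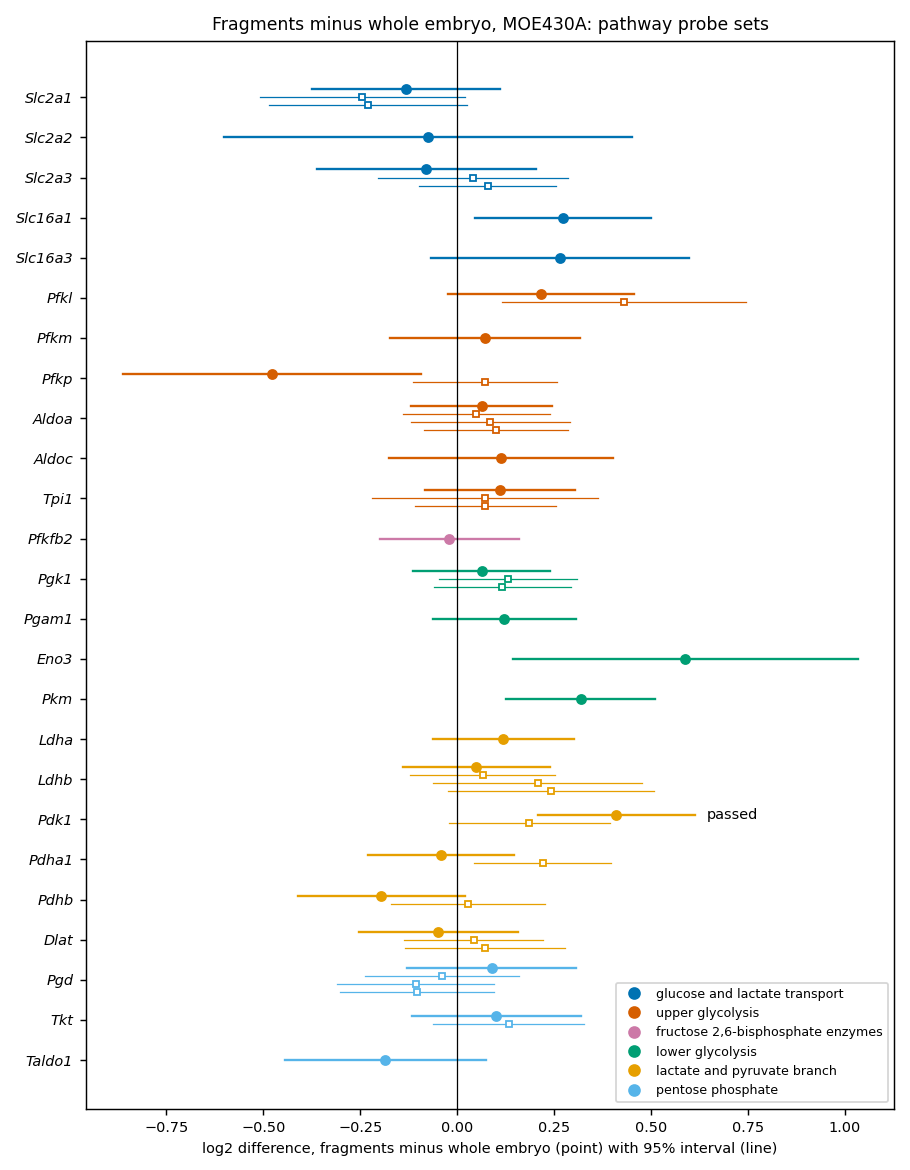
Fitted log2 difference, fragments minus whole embryo, with its 95% interval for the 50 tested probe sets on MOE430A, drawn as in the plot of Ad minus Pp. Pdk1, at 0.41, is the only one marked as passed; Eno3 and Pkm lie to the right and Pfkp to the left of 0.

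Pdk1 had 3238 and 3231 in Ad and 3541 and 3191 in Pp, against 2571 in the whole embryo, so all 4 fragments lay above it. The log2 difference was 0.41 ± 0.08 (95% interval 0.21 to 0.61, limma adjusted p = 0.0373). A second probe set also had the fragments above, at 2350 and 2212 in Ad and 2205 and 2397 in Pp against 2109 (log2 difference 0.19, adjusted p = 0.220). On MOE430B the fragments had 252, 254, 221 and 237 against 154 in the whole embryo (log2 difference 0.60 ± 0.15, adjusted p = 0.116). The faint Pdk1 probe set there, which was not tested, had 35.9 and 35.6 in Ad and 56.1 and 27.6 in Pp against 16.5. The call ended without centring (0.33, adjusted p = 0.0679), with an intensity trend (adjusted p = 0.0517), with the replicate number as a block (adjusted p = 0.0716), and when Ad replicate 1 or 2 was left out (adjusted p = 0.133 and 0.157).

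Pfkfb4 had 167 and 182 in Ad and 169 and 166 in Pp, against 362 in the whole embryo. The 4 fragments lay close together and all below it. The log2 difference was -1.04 ± 0.15 (95% interval -1.41 to -0.68, limma adjusted p = 0.0244), and it ended as a call with no filter on low values (-1.07, adjusted p = 0.0653) and when Ad replicate 3 or 4 was left out (adjusted p = 0.141 and 0.140). Pfkfb2, of the same family, also had all fragments below the whole embryo on MOE430B (97.6 and 84.1 in Ad, 74.5 and 96.8 in Pp, against 132; log2 difference -0.54 ± 0.18, adjusted p = 0.220). On MOE430A it had a log2 difference of -0.02 ± 0.07.

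Both genes are known targets of the hypoxia-inducible factors, whose core site reads ACGTG or GCGTG. A RefSeq window from 250 bases before to 50 after the start is shown for each (GRCm38.p6, plus strand, 5′ to 3′), because these are the genes that passed, in opposite directions. Capitals mark either core on either strand. The Pdk1 window has GCGTG at -78 and at -2 from the start, and that of Pfkfb4 has it at -117. A second Pdk1 window, at chr2:71874654-71874953, has 0 matches and is not shown.
Pdk1 chr2:71872974-71873273: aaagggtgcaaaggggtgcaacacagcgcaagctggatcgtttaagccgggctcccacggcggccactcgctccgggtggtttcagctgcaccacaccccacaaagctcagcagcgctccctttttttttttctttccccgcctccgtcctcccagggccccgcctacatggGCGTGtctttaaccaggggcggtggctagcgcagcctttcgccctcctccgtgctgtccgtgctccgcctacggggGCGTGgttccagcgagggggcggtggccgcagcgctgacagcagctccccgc
Pfkfb4 chr9:108991652-108991951: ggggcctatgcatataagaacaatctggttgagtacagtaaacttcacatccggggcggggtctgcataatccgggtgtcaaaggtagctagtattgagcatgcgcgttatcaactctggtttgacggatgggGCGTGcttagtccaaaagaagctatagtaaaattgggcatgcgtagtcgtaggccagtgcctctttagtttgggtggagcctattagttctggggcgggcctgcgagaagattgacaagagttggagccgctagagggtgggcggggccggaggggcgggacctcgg
Such a core was in 43.8% of all 32851 windows (ACGTG in 19.6%, GCGTG in 32.4%), and in 37 of the 50 windows of the listed genes. Of the 32 listed genes with a window, which include the 4 without expression values, 27 had a core in at least 1 window. Slc2a2 had none in its window. Slc2a3 had no window. A match is a description of the letters and not a bound site.

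Several glycolytic genes lay to the same side as Pdk1 without passing. Pkm had 14692 and 13992 in Ad and 14764 and 15474 in Pp, against 12440 in the whole embryo, with all fragments above (log2 difference 0.32 ± 0.08, limma adjusted p = 0.0608). Pkm passed with an intensity trend (adjusted p = 0.0289) and when Pp replicate 1 or 2 was left out (adjusted p = 0.0107 and 0.0189), where the spread comes from the Ad pair alone. It did not pass without centring (adjusted p = 0.124), with the replicate block (adjusted p = 0.130), or when Ad replicate 1 or 2 was left out (adjusted p = 0.186 for each). Eno3 had 581 and 818 in Ad and 812 and 584 in Pp, against 412, a log2 difference of 0.59. The whole-embryo value is below the tested range, so Eno3 was tested only through the fragments, where it is high, and its p supports nothing here. Slc16a1 was above the whole embryo in all 4 fragments, the Pp arrays by little (log2 difference 0.27 ± 0.09, adjusted p = 0.127), with adjusted p = 0.0425 and 0.04996 when Pp replicate 1 or 2 was left out and 0.164 and 0.292 when Ad replicate 1 or 2 was. Slc16a3 had 0.26 ± 0.14 (adjusted p = 0.267) and passed without Pp replicate 2 (0.34, adjusted p = 0.0194) but not without Pp replicate 1 (0.19, adjusted p = 0.170).

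Among the phosphofructokinase subunits, no probe set passed. Pfkp had 954 and 918 in Ad and 1053 and 1482 in Pp, against 1714 in the whole embryo, a log2 difference of -0.48 ± 0.16 (limma adjusted p = 0.119). Leaving out Pp replicate 1 gave -0.37 (adjusted p = 0.00613) and leaving out Pp replicate 2 gave -0.58 (adjusted p = 0.000189), with the spread from the Ad pair alone, while without Ad replicate 1 or 2 the adjusted p was 0.254 and 0.297. The summed extraembryonic ectoderm markers were also highest in the whole embryo and next in Pp replicate 2. Not every marker was. Elf5 had 2432 in Pp replicate 2 against 2194 in the whole embryo, Bmp4 2359 against 1595 and Esrrb 752 against 691. Tfap2c had 1295 and 1241 in Pp replicates 1 and 2 and 1239 in the whole embryo. The other markers of the list were higher in the whole embryo, Hand1 with 4014 against 1248 in Pp replicate 2. The part of that tissue in the Pfkp difference was not tested. The second Pfkp probe set lay at 0.07 and the one on MOE430B at 0.29. Pfkl overlapped the whole embryo with its brightest probe set (log2 difference 0.22) and lay above it with the second (3656, 3144, 4345 and 5219 against 3103, log2 difference 0.43, adjusted p = 0.0961).

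None of Slc2a1, Slc2a2 and Slc2a3 passed between fragments and intact embryo, although all 4 fragments lay below the whole embryo for the brightest probe sets of Slc2a1 (5378 to 7418, against 7511) and Slc2a3 (10926 to 13132, against 13761). Slc2a1 had a log2 difference of -0.13 ± 0.10, Slc2a3 of -0.08 ± 0.11 and Slc2a2 of -0.07 ± 0.21, and for Slc2a2 the whole embryo lay between Ad and Pp. Log2 differences were 0.06 for Aldoa, 0.06 for Pgk1, 0.12 for Pgam1, 0.11 for Tpi1 and 0.12 for Ldha, and those of Aldoa and Pgk1 turned to -0.02 without centring. In the pyruvate dehydrogenase complex, the probe sets went both ways. The brightest of Pdhb had 5753 and 5724 in Ad and 5466 and 6047 in Pp, against 7005 in the whole embryo (log2 difference -0.20 ± 0.09, limma adjusted p = 0.215), and its second lay at 0.03. The brightest of Pdha1 lay at -0.04. Its second had 2356 and 2348 in Ad and 2353 and 2349 in Pp, against 2110 (log2 difference 0.22, adjusted p = 0.118). The Dlat probe sets lay at -0.05, 0.04 and 0.07. Of the pentose phosphate genes, Taldo1 had the fragments below the whole embryo (4093, 4417, 3555 and 4096 against 4891, log2 difference -0.19, adjusted p = 0.314). Tkt on MOE430B had them above (121, 112, 135 and 151 against 86.2, log2 difference 0.52 ± 0.15, adjusted p = 0.176) and had 0.10 on MOE430A.

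**Figure D4:**
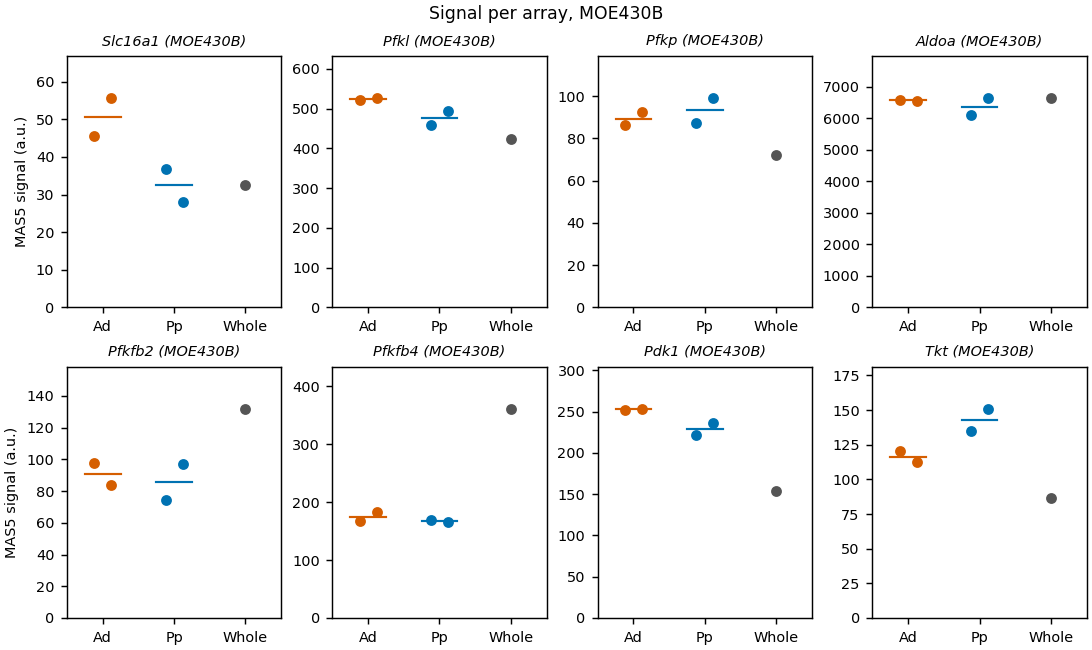
MAS5 signal in arbitrary units on each MOE430B array for the 8 genes tested there, drawn as in the plot of MOE430A signals. Pfkfb4 lies between 166 and 182 in the fragments, against 362 in the whole embryo, and Pdk1 between 221 and 254, against 154.

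The interval of the difference from the whole embryo lay within 2-fold for 24 of 25 genes on MOE430A, all but Eno3, and for 7 of 8 on MOE430B, all but Pfkfb4, against 96.5% and 86.5% of all tested probe sets. All 4 fragments were above the whole embryo for 11 of the 50 probe sets on MOE430A and below it for 15, where the shares over all tested probe sets were 22.0% and 36.8%. On MOE430B 4 of 8 were above and 3 below, where the shares were 29.4% and 22.7%.

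Other genes of sugar metabolism, outside the 33, were set beside these from a list of 62. Between Ad and Pp 0 of 32 tested on MOE430A and 0 of 12 on MOE430B passed in limma; 3 and 1 had an unadjusted p under 0.05. The largest value was that of Pgls, the lactonase of the pentose phosphate pathway, with 2391 and 2240 in Ad against 1575 and 1745 in Pp (log2 difference 0.36 ± 0.08, adjusted p = 0.242). Against the whole embryo 3 rose and 2 fell in the fragments on MOE430A, and 1 fell on MOE430B. Those that rose were Pdk3, another pyruvate dehydrogenase kinase (1.28-fold, adjusted p = 0.0369), Ldhc, the lactate dehydrogenase known from testis (1.60-fold, adjusted p = 0.0300), and Prps1, which makes phosphoribosyl pyrophosphate from ribose 5-phosphate (1.69-fold, adjusted p = 0.0225).

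Rpia, the ribose 5-phosphate isomerase, fell in the fragments, with 1673 and 1703 in Ad and 1803 and 1627 in Pp, against 4397 in the whole embryo (2.26-fold, limma adjusted p = 0.00116). Gys1, the glycogen synthase of muscle and other tissues, fell too (957 and 936 in Ad and 982 and 1021 in Pp, against 1401, adjusted p = 0.0414). Slc2a12, a glucose transporter, had 416 and 428 in Ad and 256 and 446 in Pp, against 1171 in the whole embryo on MOE430B (3.06-fold lower, adjusted p = 0.0369). Each of these 3 had all fragments below the whole embryo, as did the summed decidual markers. On MOE430A the single markers Des and Pgr did not: Pgr had 664 and 707 in Ad and 395 and 605 in Pp, against 592. A Pgr probe set on MOE430B did, with 80 and 78 in Ad and 101 and 78 in Pp, against 991. Most extraembryonic ectoderm markers on MOE430A also had negative differences. The part of either tissue was not tested.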

How the data were processed

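The authors deposited 1 intensity per probe set, linear and without a physical unit, from MAS5 according to the submitters' processing notes. The sources used here give no scaling target or floor. Per the labels' protocols the RNA was amplified before hybridisation. The median signal ran from 590.3 to 644 across MOE430A arrays and from 56.8 to 61.0 across MOE430B arrays.

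Both array types were analysed separately (R 4.3.3; limma 3.58.1). After removal of 64 control probe sets, a pseudocount equal to the 20th percentile was added, log2 taken, and probe sets with a mean log2 above the 40th percentile kept (13575 on MOE430A, 13506 on MOE430B). Arrays were then median-centred. One coefficient per kind of sample left 2 residual degrees of freedom, moderated by eBayes. Two-sided p-values were Benjamini-Hochberg adjusted over everything kept on that type, and each adjusted p given is limma's. The script was tested on simulated data. Precision is limited by the number of arrays.

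The platform annotation gave 1 symbol to 20393 MOE430A probe sets, several to 691 and none to 1606, and on MOE430B 14674, 245 and 7656. The rule was to name the listed genes. Genes and lists were chosen with earlier results of these data known. Alternatives covered centring, quantile normalization, pseudocount, filter, intensity trend, a replicate block, means over probe sets, and omission of each fragment array.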

Additional observations from a re-analysis of the deposited data

How the results depend on the processing

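With all arrays kept, 0 pathway probe sets were called between Ad and Pp under each setting tried on either array type (limma); without 1 array the range was 0 to 6 on MOE430A, 6 without Pp replicate 1 and 4 without Pp replicate 2, with the spread then taken from the Ad pair alone, and 0 to 0 on MOE430B. Against the whole embryo on MOE430A, the 1 call went to 0 with no centring and to 0 with the replicate block, and ranged from 0 (without either Ad array) to 10 (without Pp replicate 2; 6 without Pp replicate 1) without 1 array; with an intensity trend the 1 call was Pkm in place of Pdk1. On MOE430B the 1 call went to 0 with no filter and ranged from 0 to 1 without 1 array. The replicate block pairs arrays by number, which the labels do not state; same-numbered deviations correlated at r = -0.242 on MOE430A and -0.0392 on MOE430B. It left 0 pathway calls between Ad and Pp on both types and 1 against the whole embryo on MOE430B. With the numbers crossed, an alternative chosen after seeing the data, 0 pathway probe sets were called between Ad and Pp and 4 against the whole embryo on MOE430A. Over all probe sets, the Ad minus Pp calls went from 23 to 46 with no centring and 47 with crossed numbers on MOE430A, and from 15 to 2 (no filter), 26 (filter at the 60th percentile), 29 (replicate block), 30 (larger pseudocount) and 30 (intensity trend) on MOE430B; without 1 array they ranged from 1 to 811 and from 0 to 131. Against the whole embryo, 1328 went to 865 with the block (274 to 3493 without 1 array) and 299 to 196 with no filter (101 to 1180).

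Signs turned as follows. In Ad minus Pp on MOE430A with no centring, Pfkfb2 went to 0.0436, Ldha to 0.00728, Pdha1 to 0.0244, Eno3 to 0.00147 and Aldoa to 0.0093. Pfkfb2 also went to 0.00321 under quantile normalization and 0.00406 with no filter, and Slc2a3 to -0.00768 with no pseudocount and -0.0622 as the mean over its probe sets. On MOE430B Pfkfb4 went to 0.0518 and Aldoa to 0.0474 with no centring, and Pfkfb2 to -0.00082 with the larger pseudocount. Against the whole embryo on MOE430A with no centring, Ldhb went to -0.0302, Pgk1 to -0.0162, Aldoa to -0.0169 and Pfkm to -0.00848. Under quantile normalization Pgk1 went to -0.0209 and Aldoa to -0.0111. As means over probe sets Slc2a3 went to 0.0137, Dlat to 0.0223, Pdha1 to 0.0894 and Pgd to -0.0402. Without 1 array, Ad minus Pp ranged from -0.0201 to 0.109 for Dlat, -0.257 to 0.123 for Eno3, -0.148 to 0.00542 for Pdhb, -0.183 to 0.0281 for Pfkm, -0.151 to 0.00861 for Pgd, -0.131 to 0.143 for Slc2a3 and -0.0244 to 0.181 for Taldo1 on MOE430A. On MOE430B it ranged from -0.0608 to 0.00336 for Aldoa, -0.134 to 0.146 for Pfkfb2 and -0.0755 to 0.0273 for Pfkfb4. Fragments minus whole embryo ranged from -0.0772 to 0.0812 for Slc2a2 on MOE430A. The cause of these changes was not tested.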
